A study of Mus musculus with 3 samples.

Results

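The RNA helicase MTR4 feeds RNA into the nuclear exosome, the complex that trims or destroys it. In mammalian cells its known substrates include short transcripts that start near promoters and run away from the gene, and transcripts that continue past the end of a gene. The bases just outside protein-coding genes are therefore where such RNA would map. The regions described here are the narrow MTR4 peaks that lay there: peaks of exactly 20 nt whose midpoint was outside every annotated RefSeq gene body and 1 to 3000 nt from the nearest end of a protein-coding gene. They numbered 803 of the 15769 peaks in the list (5.09%, 95% Wilson interval 4.76 to 5.45). Of the other peaks of that width, 9825 lay in gene bodies and 4465 outside genes and over 3000 nt from a protein-coding gene.

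The peaks come from LACE-seq, a method in which RNA crosslinked by ultraviolet light to a protein is precipitated with an antibody against that protein and mapped through its reverse-transcribed fragments. The cells were KIT(+) cells sorted from mouse testis at postnatal day 8, with the genotype given as Mtr4WT, a fraction meant to hold differentiating spermatogonia. The labels describe 3 samples of this 1 group, all precipitated for MTR4, with no control precipitation among them. The peak list is recorded under replicate 3, holds a position and a strand sign for each peak and no read count, so the depth behind a peak is unknown and every test below compares positions within 1 list, with no replicate check. With no control precipitation and no measure of abundance, contact with MTR4 and background from abundant RNA cannot be told apart.

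Strand was known for 17492 of 21887 protein-coding genes, through the RefSeq promoter table. Beside these genes lay 646 of the 803 peaks, 453 upstream of a gene start and 193 downstream of a gene end, while 157 lay beside genes of unknown strand. The sequences at the 6 peaks nearest to a start, and at 5 of the 19 starts with a pair of upstream peaks, are shown first, because the results turn on this stretch. The pairs are the 4 that lie nearest to their gene by the nearer peak, and Ppp2r5a, added after its values were seen as a pair of both signs. They are RefSeq promoter sequences of build GRCm38.p6 (mm10), written on the gene strand from 5′ to 3′, with the 20 nt of each peak in capitals.
Pwp1, a WD-repeat gene of ribosome production (chr10:85871801-85871860, plus strand, peak midpoint 1 nt before the start): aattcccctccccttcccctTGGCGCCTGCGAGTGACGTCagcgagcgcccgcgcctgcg
Wnt2b, a Wnt ligand (chr3:104961681-104961740, minus strand, 1 nt): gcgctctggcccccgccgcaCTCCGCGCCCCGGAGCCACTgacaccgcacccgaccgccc
Kif17, a kinesin motor (chr4:138262181-138262280, plus strand, peaks at 41 and 1 nt): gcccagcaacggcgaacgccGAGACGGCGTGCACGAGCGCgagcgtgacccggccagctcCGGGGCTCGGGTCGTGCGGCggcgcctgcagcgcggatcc
Mtx2, a metaxin of the mitochondrial outer membrane (chr2:74825781-74825840, plus strand, 2 nt): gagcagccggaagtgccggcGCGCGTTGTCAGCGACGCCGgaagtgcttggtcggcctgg
Atm, the DNA damage kinase (chr9:53536801-53536860, minus strand, 2 nt): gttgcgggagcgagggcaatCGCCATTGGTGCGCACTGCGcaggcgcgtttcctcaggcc
Pacrgl, a relative of the parkin co-regulated gene (chr5:48372221-48372420, plus strand, 142 and 2 nt): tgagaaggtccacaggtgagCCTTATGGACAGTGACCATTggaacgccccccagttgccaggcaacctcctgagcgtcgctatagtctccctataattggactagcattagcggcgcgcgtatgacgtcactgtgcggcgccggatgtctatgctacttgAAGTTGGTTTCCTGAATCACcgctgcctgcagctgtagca
Ankrd52, a regulatory subunit of protein phosphatase 6 (chr10:128377041-128377140, plus strand, 54 and 14 nt): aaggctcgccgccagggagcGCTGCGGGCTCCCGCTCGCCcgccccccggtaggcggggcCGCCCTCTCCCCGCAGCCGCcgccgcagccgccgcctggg
Sppl3, an intramembrane protease (chr5:115011341-115011540, plus strand, 154 and 14 nt): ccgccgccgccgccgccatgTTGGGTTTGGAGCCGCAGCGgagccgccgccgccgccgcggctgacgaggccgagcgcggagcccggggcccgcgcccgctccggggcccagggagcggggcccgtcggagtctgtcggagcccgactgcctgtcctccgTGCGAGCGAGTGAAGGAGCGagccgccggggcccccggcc
Ppp2r5a, a regulatory subunit of protein phosphatase 2A (chr1:191397041-191397180, minus strand, 109 and 29 nt, of both signs): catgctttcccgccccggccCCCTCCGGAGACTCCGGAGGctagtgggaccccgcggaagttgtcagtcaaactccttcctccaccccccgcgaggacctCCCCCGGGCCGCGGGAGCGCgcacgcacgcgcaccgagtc

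Narrow peaks outside genes were concentrated at gene starts, with no such concentration beyond gene ends. Of the 646 with a known side, 453 were upstream (70.1%, interval 66.5 to 73.5), whereas 49.4% of the bases available in the window were upstream. The two-sided exact binomial test gave p = 2.4e-26, adjusted p = 1.3e-25 over 16 tests. Available bases are those outside all gene bodies and within 3000 nt of the nearest protein-coding gene end, so that short gaps between genes were allowed for. Upstream sequence held 13.1 peaks per Mb over 34.6 Mb, and downstream sequence 5.45 per Mb over 35.4 Mb.

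The excess upstream lay close to the start. In the first 250 nt before a start there were 215 peaks, 64.2 per Mb (95% exact Poisson interval 55.9 to 73.4). The next 250 nt held 62 peaks, 19.7 per Mb (15.1 to 25.3), and the 250 nt after that 29 peaks, 9.45 per Mb (6.33 to 13.6). Beyond 1000 nt the density stayed between 2.99 and 6.25 per Mb. Within 1000 nt lay 335 of the 453 upstream peaks (74.0%, interval 69.7 to 77.8), against 36.3% of the available upstream bases (exact binomial test, adjusted p = 1.8e-58). The median distance to the start was 300 nt, with quartiles at 78 and 1071 nt.

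Beyond gene ends no such gradient was found. The first 250 nt past an end held 28 peaks, 7.77 per Mb (5.17 to 11.2), and the last 250 nt of the window 14 peaks, 5.62 per Mb (3.07 to 9.43). Within 1000 nt lay 84 of the 193 downstream peaks (43.5%, interval 36.7 to 50.6), against 38.0% of the available bases (exact binomial test, adjusted p = 0.24). The median distance from the end was 1210 nt. The share within 1000 nt was higher upstream than downstream by 30.4 percentage points (two-sided Fisher's exact test, odds ratio 3.68, adjusted p = 1.2e-12). Beyond 1000 nt the sides did not separate: 118 of 227 peaks were upstream (52.0%, interval 45.5 to 58.4), against 50.1% of bases (exact binomial test, adjusted p = 0.68).

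**Figure D1:**
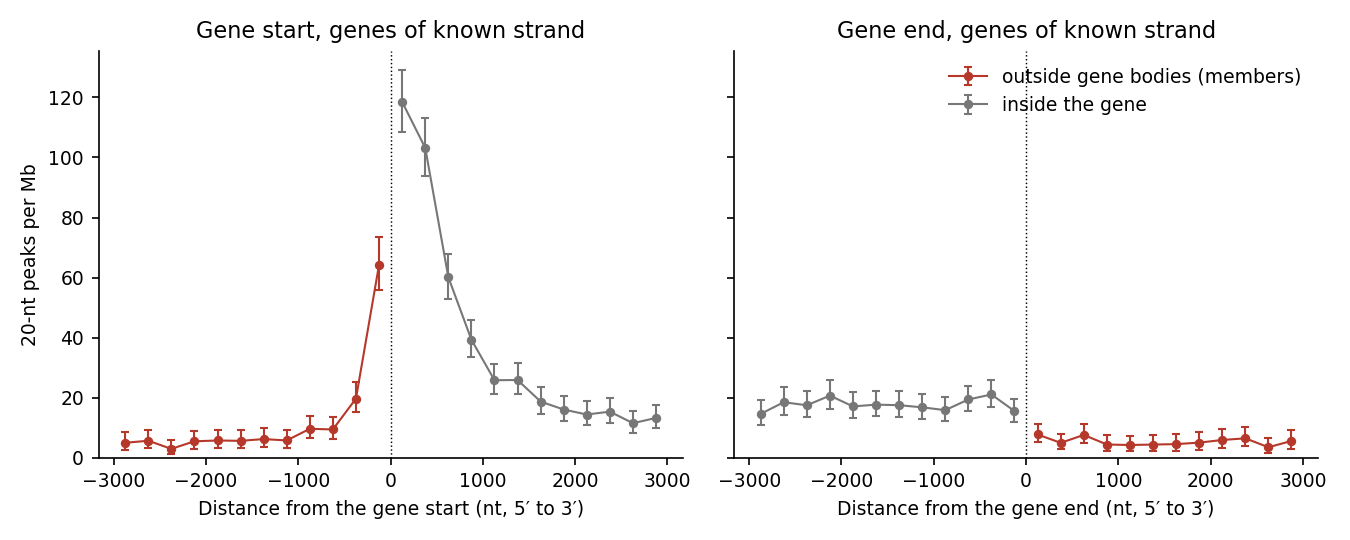
Density of 20-nt peaks per Mb in bins of 250 nt around the start (left) and the end (right) of protein-coding genes of known strand, by distance in nt along the gene; red points are peaks outside all gene bodies, grey points peaks inside the gene, and bars are 95% exact Poisson intervals. The density before the start climbs from 5.01 per Mb in the farthest bin to 64.2 in the nearest, and is 118 in the first 250 nt inside. Beyond the end no bin outside exceeds 7.77 per Mb. Inside genes, peaks and bases are counted for each gene, also where genes overlap.

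Peaks just inside the start were denser still. Inside genes, peaks and bases were counted for each gene, so those in overlapping genes count more than once. Outside genes each counts only for its nearest gene. The first 250 nt of gene bodies held 518 peaks of 20 nt, 118 per Mb (108 to 129), and the 250 nt after these 450 peaks, 103 per Mb (93.9 to 113). At the other end, the last 250 nt inside held 68 peaks, 15.6 per Mb (12.1 to 19.7). The highest bin of the whole profile was thus inside the gene, and the peaks before a start form its outer shoulder. The file places peaks on a grid of 20 nt, and 25 of the upstream peaks reached with their own 20 nt into the gene.

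Taking all 803 peaks, strand known or not, 519 lay within 1000 nt of the gene (64.6%, interval 61.3 to 67.9), against 37.1% of available bases (exact binomial test, adjusted p = 3.0e-55). The 157 beside genes of unknown strand had a median distance of 434 nt. Of them, 83 were on the side of lower coordinates (52.9%, against 49.9% expected, exact binomial test, p = 0.47, not adjusted). Nearest to a gene were the peaks at Pwp1, Wnt2b and Kif17, at 1 nt, the least distance possible for a midpoint outside genes. At the outer limit, the last peaks inside the window were those beyond Ddah1 at 2993 nt, Nes at 2979 nt and Bfsp1 at 2978 nt. The first beyond it lay 3016 nt before Tgfbi, 3018 nt after Pgm2l1 and 3028 nt after B3galt1.

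No difference in strand sign between the sides passed the test. RNA that runs away from a promoter and RNA that runs past a gene end would carry different signs if the sign followed the RNA. The sign was therefore compared with the gene strand. In protein-coding gene bodies, 3633 of 6909 peaks had the sign opposite to the gene strand (52.6%, interval 51.4 to 53.8). An exact binomial test against an even split gave adjusted p = 4.9e-05. Peaks were counted for each gene, also where genes overlap. Peaks of the same gene are not independent, so this test and interval treat clustered peaks as separate. The share was 67.4% over the 270 peaks in the 32 genes with at least 7 peaks, and all 19 peaks in the AP-1 gene Fosb were opposite. Over genes with a single peak it was 49.6% of 2916 peaks. Whether either sign marks RNA in the direction of the gene was therefore not settled. The comparisons by side below thus cannot tell directions of RNA apart. Signs are given relative to the gene strand, as a description of the list and not of the direction of the RNA. Upstream of starts 239 of 453 peaks were opposite (52.8%, interval 48.2 to 57.3; exact binomial test, adjusted p = 0.38). Downstream of ends 89 of 193 were opposite (46.1%, interval 39.2 to 53.2; exact binomial test, adjusted p = 0.42), and the difference between the sides was 6.65 percentage points (Fisher's exact test, adjusted p = 0.26). Within 1000 nt of the gene it was 14.2 points, from 183 of 335 upstream and 34 of 84 downstream (Fisher's exact test, p = 0.028, not adjusted). Gene strands were not weighted equally in these comparisons.

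**Figure D2:**
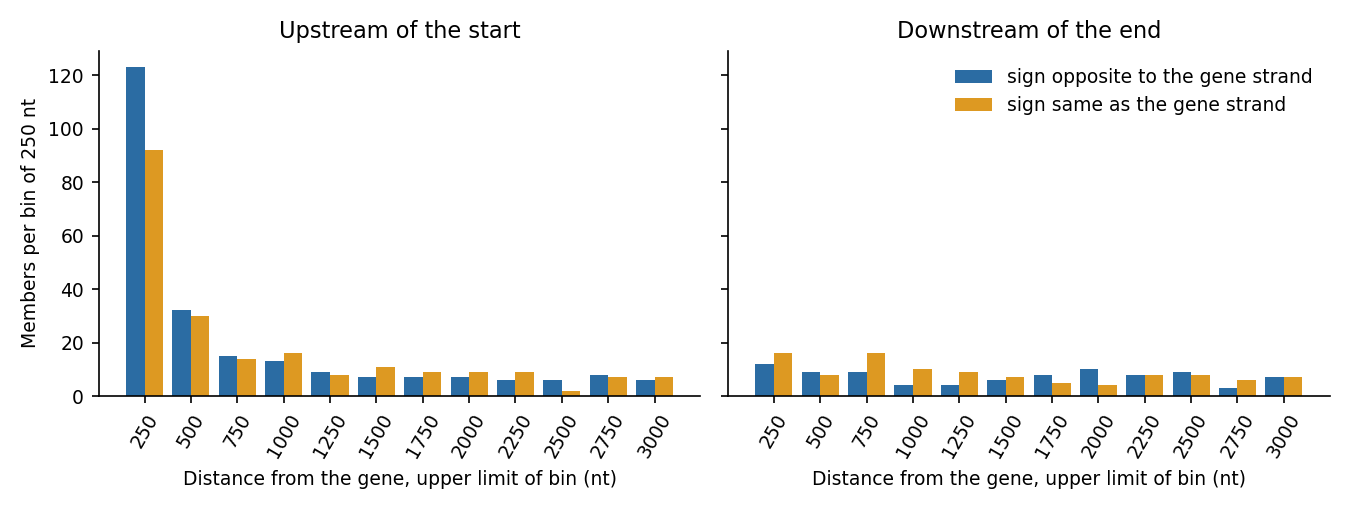
Number of peaks outside protein-coding genes of known strand in bins of 250 nt by distance from the start (left) or end (right) in nt, split by sign relative to the gene strand (blue, opposite; orange, same). In the first bin upstream 123 peaks are opposite and 92 the same, and in the first bin downstream 12 are opposite and 16 the same.

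Peaks next to genes carried the minus sign more often than those farther away. Over the whole list 61.3% were minus, and over narrow peaks in gene bodies 64.0% (6290 of 9825). Of the 803 peaks, 550 carried the minus sign (68.5%, interval 65.2 to 71.6), against 2491 of the 4465 narrow peaks outside genes and farther away (55.8%, interval 54.3 to 57.2; Fisher's exact test, odds ratio 1.72, adjusted p = 4.0e-11). Within 1000 nt of the gene the minus share was 72.3% (375 of 519) and beyond it 61.6% (175 of 284; Fisher's exact test, adjusted p = 0.0057). The lean was found beside genes of both strands, so whether a peak counted as opposite or same depended largely on the strand of its gene. Upstream of plus-strand genes 181 of 255 peaks were minus (71.0%), and upstream of minus-strand genes 140 of 198 (70.7%; Fisher's exact test, adjusted p = 1). Downstream the minus shares were 61.6% (53 of 86) and 66.4% (71 of 107; Fisher's exact test, adjusted p = 0.67). With genes of both strands weighted equally, the share of opposite signs upstream exceeded that downstream by 2.50 points.

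Most flanks held 1 peak. The 803 peaks fell beside 756 genes, 3.45% of the 21887 protein-coding genes, in 763 flanks, where a flank is 1 side of 1 gene. A single peak was found in 729 flanks, a pair in 30, 3 peaks in 2 flanks and 4 peaks in 2. Upstream peaks lay beside 432 genes, 2.47% of those of known strand, and downstream peaks beside 184, 1.05%. Another peak of either sign lay within 1000 nt of 123 of the 803 (15.3%). For narrow peaks farther from genes this share was 6.85%, and for those inside gene bodies 12.7%. Within 100 nt the shares lay closer, at 4.73%, 4.43% and 5.08%. A peak of the other sign lay within 100 nt of 13 (1.62%, against 0.40% farther from genes and 0.93% inside gene bodies), and within 1000 nt of 5.48% (against 1.48% and 3.38%). These shares were not tested against each other.

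Of the 34 flanks with 2 or more peaks, 21 held 1 sign and 13 both. Upstream, 10 of the 19 pairs held 1 sign and 9 both, and downstream all 4 pairs held 1 sign. The split was not tested; 68.5% of all 803 peaks were minus. Pairs of both signs include Ppp2r5a at 29 and 109 nt, Maged1 at 385 and 405 nt and Hsdl2 at 807 and 827 nt, all upstream and picked after their values were seen. The densest flanks were those of BC005537 and Aamdc. BC005537 (chromosome 13, 24801657 to 24812899), of unknown strand, had 4 peaks on its lower coordinate side at 147, 187, 347 and 387 nt, all minus. Aamdc (chromosome 7, 97550329 to 97579557, minus strand) had 4 downstream peaks at 419, 459, 499 and 659 nt, all plus and hence opposite to the gene. Its body held 0 peaks.

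Dll4, a Notch ligand (chromosome 2, 119325784 to 119335666, plus strand), had 3 peaks 1644, 2204 and 2384 nt past its end, all opposite to the gene and again with 0 peaks in the gene itself. Upstream of the olfactory receptor gene Olfr559 (chromosome 7, 102723532 to 102724488, minus strand) the 3 peaks stood farther apart, at 662, 1082 and 2542 nt, and were of both signs. The gene model Gm7361 (chromosome 5, 26178213 to 26264312, plus strand) had peaks 18 and 2938 nt past its end. Both had the sign of the gene, as did all 7 peaks in its body.

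The 19 upstream pairs were 20 to 1680 nt apart, with a median of 140 nt. The 4 nearest to their gene, at Kif17, Pacrgl, Ankrd52 and Sppl3, whose sequences are given above, each had both peaks on the minus sign, opposite to the plus-strand gene. Kcnt1, a sodium-activated potassium channel gene of unknown strand (chromosome 2, 25863791 to 25918273), had minus peaks at 21 and 101 nt on its lower coordinate side. Farther out, Zfp143, a zinc finger activator of small nuclear RNA genes (chromosome 7, 110061689 to 110095396), had plus peaks 1979 and 2039 nt upstream, of the sign of the gene. In all, 15 peaks in 6 flanks lay within 100 nt of another of the same flank and sign, those of Ankrd52, BC005537, Kcnt1, Kif17, Aamdc and Zfp143.

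**Figure D3:**
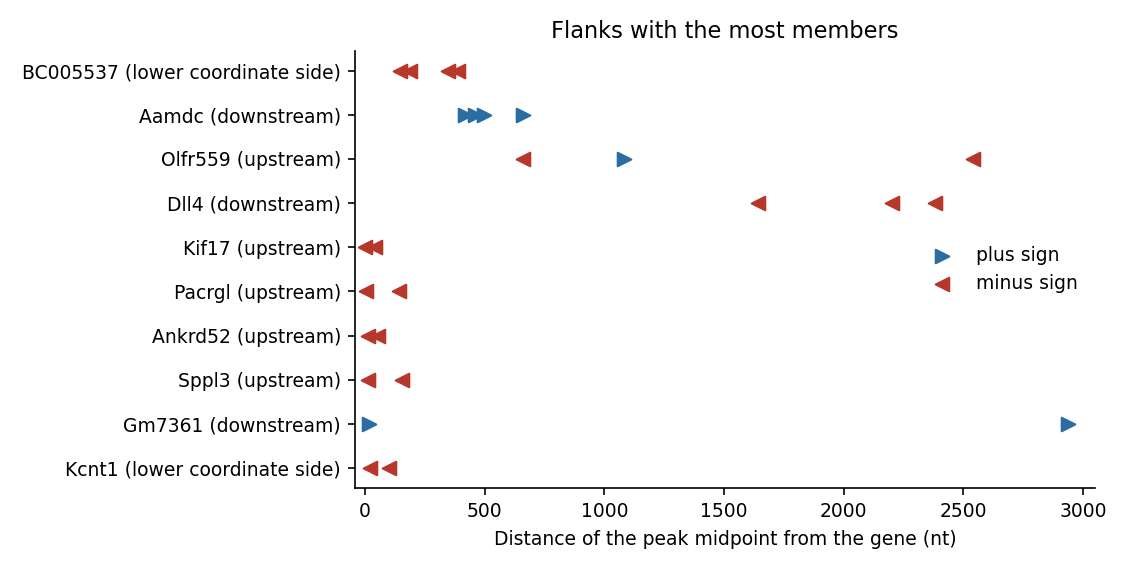
Distance in nt of each peak from the gene, 1 row per flank, in the 4 flanks with 3 or 4 peaks and in 6 of the 30 with 2, those whose nearer peak lies closest to the gene, with right-pointing blue markers for the plus sign and left-pointing red markers for the minus sign. Peaks at Kif17, Pacrgl, Ankrd52, Sppl3 and Kcnt1 crowd within 154 nt of the gene, those of Dll4 start at 1644 nt, and Olfr559 shows both signs, as do 12 of the 30 pairs, none of them drawn.

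Nearest to a gene end were peaks past Dhx15, a helicase of spliceosome disassembly, at 13 nt, and Gm7361 at 18 nt. These were followed by Castor1, an arginine sensor of the mTORC1 pathway, at 21 nt, the centromere protein gene Itgb3bp at 36 nt, the microtubule plus-end gene Slain1 at 43 nt and Ddx5 at 65 nt. Dhx15, Castor1 and Slain1 carried the sign opposite to the gene, and Gm7361, Itgb3bp and Ddx5 that of the gene. At the 6 nearest starts, Pwp1, Kif17, Mtx2 and Pacrgl were opposite, and Wnt2b and Atm had the sign of the gene; all 6 peaks were minus.

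Shares of genes with a flanking peak ran from 0% to 12% in the functional lists, against 3.45% of all genes. The lists were chosen with earlier results of these data known, and these shares were not tested. Of the immediate early genes, transcribed within minutes of a stimulus, 4 of 36 had one (11.1%, against 3.45% of all protein-coding genes). Their peak at Fosb lay 1406 nt past the end, that at Junb, its AP-1 partner, 719 nt past the end, and that at the stress gene Gadd45g 2575 nt past the end. All 3 had the sign of the gene, whereas the 19 peaks in Fosb and the 2 in Junb were opposite to it. The zinc finger gene Egr3, of unknown strand, had a minus peak at 47 nt on its lower coordinate side.

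Heat shock, ubiquitin and translation factor genes had a flanking peak in 3 of 25 (12.0%, against 3.45% of all). The inducible HSP90 gene Hsp90aa1, of unknown strand, had minus peaks at 35 and 155 nt on its higher coordinate side. Hspa8, the constitutive HSP70 gene, had 1 at 286 nt on its lower coordinate side, next to 3 minus peaks in its body. The HSP40 co-chaperone gene Dnajb1 had a plus peak 65 nt before its start, of the sign of the gene.

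Among splicing factor genes the count was 3 of 48 (6.25%, against 3.45% of all). The core spliceosome gene Prpf8 had a minus peak 147 nt before its start, and both peaks in its body were also minus. The helicase gene Ddx5 had the peak past its end named above. The promoters of the 2 list genes with an upstream peak in the sequence table, Prpf8 and Dnajb1, are shown whole, from 250 nt before the start to 50 nt after it, with the peak in capitals.
Prpf8 (chr11:75486527-75486826, plus strand): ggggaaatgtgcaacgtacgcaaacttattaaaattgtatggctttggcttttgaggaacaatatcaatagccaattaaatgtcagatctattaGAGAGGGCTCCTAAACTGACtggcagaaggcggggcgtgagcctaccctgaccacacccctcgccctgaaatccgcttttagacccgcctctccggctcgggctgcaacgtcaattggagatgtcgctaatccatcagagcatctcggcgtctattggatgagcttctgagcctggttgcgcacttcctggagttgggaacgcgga
Dnajb1 (chr8:83607925-83608224, plus strand): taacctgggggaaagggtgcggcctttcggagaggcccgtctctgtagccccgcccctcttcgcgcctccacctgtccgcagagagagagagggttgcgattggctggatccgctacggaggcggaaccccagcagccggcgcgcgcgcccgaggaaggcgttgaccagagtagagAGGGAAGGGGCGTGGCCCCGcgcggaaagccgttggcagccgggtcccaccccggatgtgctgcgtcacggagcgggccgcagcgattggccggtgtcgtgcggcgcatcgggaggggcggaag

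Germ cell lists had 0 to 2 genes with a flanking peak each, and are again set against 3.45% of all genes. Of 21 genes of differentiating spermatogonia, 0 had one, which allows a share of up to 14.3% (3 counts of 21). Of 34 genes of meiotic entry and prophase, 2 did (5.88%): Mei1, needed for meiotic double-strand breaks, with a minus peak 104 nt before its start, and Spo11, which makes those breaks, with a plus peak at 354 nt on its higher coordinate side. Of 24 genes of undifferentiated spermatogonia, 2 did (8.33%): Etv5, an ETS factor of spermatogonial stem cells, with a peak 2520 nt upstream, and the forkhead gene Foxc2 with a peak at 2641 nt. Of 22 retinoic acid genes, Rbp4, the retinol carrier of blood, had a peak 870 nt past its end.

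The list of exosome genes and the separate list of termination genes together gave 1 flanking peak. The exosome and its cofactors had 0 of 28 genes with one, which allows a share of up to 10.7%. Of 27 genes of cleavage, polyadenylation and termination, 1 had a flanking peak (3.70%, against 3.45% of all protein-coding genes). This was Xrn2, the exonuclease that helps end transcription, with a peak 110 nt past its end, of the sign of the gene. Replication-dependent histone genes had 0 of 64 (up to 4.69%). Among markers of other testis cells, 0 of 20 Sertoli genes (up to 15.0%) and 0 of 18 mast cell, macrophage and endothelial genes (up to 16.7%) had one. Of 17 Leydig and interstitial genes, 1 had one (5.88%). The lists are short, with 17 to 64 genes and at most 4 with a peak, and their shares were not tested against the 3.45% over all genes.

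Genes with a flanking peak held a peak in the body in 242 of 756 cases (32.0%), against 25.5% of all protein-coding genes. Their median length was 22.5 kb against 17.2 kb, and length was not held equal, so this difference was not tested. By side, the flanking gene held a body peak for 155 of 453 upstream peaks (34.2%, interval 30.0 to 38.7) and for 56 of 193 downstream peaks (29.0%, interval 23.1 to 35.8; Fisher's exact test, adjusted p = 0.32). Where there was a body peak, at least 1 had the sign of the flanking peak in 96 of 155 upstream cases (61.9%). Downstream this held in 33 of 56 cases (58.9%, Fisher's exact test between the sides, adjusted p = 0.80). Agreement of sign was not tested against an expected share. Most peaks were minus, 68.5% of the 803 and 64.0% of narrow peaks in gene bodies, and genes with several body peaks have more ways to match.

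Other annotated genes lay near some of the peaks. A second protein-coding gene end lay within 3000 nt of 96 of the 803. Between 2 starts lay 19 of them, between a start and an end 41, between 2 ends 12, and for 24 the strand of a gene was unknown. A small RNA gene lay within 1000 nt of 18, namely a tRNA gene for 8, a microRNA gene for 5, an snRNA gene for 2, and 1 each of the snoRNA, guide RNA and small cytoplasmic RNA classes. The closest was a tRNA gene 1 nt from the peak before Fcgr3, and Snord118, the U8 RNA gene, lay 16 nt from the peak beyond Tmem107. The nearest gene of another noncoding class lay within 1000 nt of 43 (5.35%), a long noncoding RNA gene for 38 and a pseudogene for 5. Reads of multi-copy genes, such as tRNA and snRNA genes, can map to several places. By chromosome, the X had the lowest density, 18 peaks at 3.97 per Mb of available sequence, and the autosomes ran from 7.74 on chromosome 9 to 13.1 on chromosome 19.

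The promoters before which peaks lay were rich in G and C. The promoter table covered the whole 20 nt of 181 upstream peaks, before 176 genes, and 138 of these were in the window at the outermost start of the gene. The 300-nt windows of these 176 genes had a median of 67.3% G + C, against 56.3% over 1 window for each of 17492 protein-coding genes. The ratio of observed to expected CpG dinucleotides had a median of 0.87 in them against 0.58 in all. The peaks themselves averaged 70.7% G + C, from 30% to 100%, while the same offsets in all windows averaged 56.5%. The rest of their own windows averaged 67.2%. Of the 181 peaks, 108 were richer than the rest of their window and 73 poorer. Among the sequences printed above, the peaks of Ankrd52 stood at 85% and the nearer peak of Pacrgl at 40%.

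**Figure D4:**
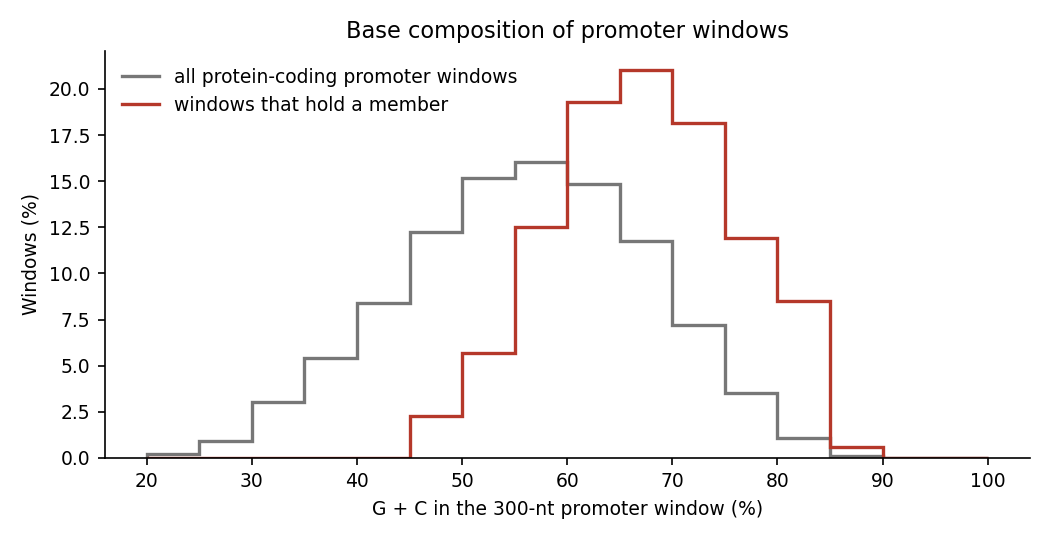
Share of 300-nt promoter windows in percent by their G + C content in bins of 5 percentage points, for all 17492 protein-coding windows (grey) and the 176 windows that hold a narrow peak (red). The red distribution is shifted to the right, with a median of 67.3% against 56.3%.

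The letters differed between the strands. On the strand of the sign, peak bases were 40.2% G and 30.5% C, and 16.5% A and 12.7% T. On the gene strand they were 35.6% G and 35.1% C. The run GGGG stood in 44 of the 181 peaks on the strand of the sign (24.3%) and CCCC in 14 (7.73%). At the same offsets 10.7% and 10.5% of all promoters held these runs, read there on the gene strand. The polyadenylation signal AATAAA, searched on both strands, was in 0 of the 181 peaks (up to 1.66%) and in 1.09% of 20-nt stretches at the same offsets; its variant ATTAAA was in 1 peak (0.55%, against 0.74%), and the 5′ splice site sequence GTAAGT in 0 (against 0.34%). In the whole windows AATAAA was found in 6.25% against 16.9% of all promoters, ATTAAA in 4.55% against 12.3% and GTAAGT in 1.14% against 6.50%. The windows with a peak were richer in G and C, and base composition was not held equal in these counts.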

How the data were processed

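The data are 1 list of LACE-seq peaks for MTR4 from KIT(+) cells, recorded under replicate 3 of 3 samples of 1 group. UV crosslinking was at 400 mJ, per the labels' protocols. Cutadapt 1.15, Bowtie 1.0.0 and build mm10 are named in the submitters' processing notes. The peak caller, its settings and any pooling are not given in the sources used here beyond the deposited name of the list. The deposited list has 4 columns (chromosome, start, end, sign), with no count, score or p-value.

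Peaks were joined by midpoint to 49943 RefSeq genes of GRCm38.p6 with coordinates, and strand was taken from the RefSeq promoter table. Coordinates are 1-based. Tests were exact binomial and Fisher's exact tests, two-sided, with Benjamini-Hochberg adjustment over 16 of them, and a threshold of 0.05 (scipy 1.17.1). The test of coordinate side beside genes of unknown strand and the tests under other settings were not adjusted. Of the 16, 7 were added after values had been seen: share within 1000 nt on each side, the side beyond 1000 nt, both tests of the minus sign and both tests of gene strand by sign. The GGGG and CCCC counts were also added then. Peaks of 1 flank or 1 gene are not independent, and intervals cover counting error only. Neighbouring gene models on chromosome 4 (Gm13286, Gm13283, Gm13290, Gm13289, Gm13272, Gm13279, Gm13285, Gm13287) each had an upstream minus peak, opposite to the gene. These peaks lay 167 to 374 nt before the start, each 2920 to 2960 nt from its nearest peak. They entered the counts as separate flanks, and whether they are copies of 1 sequence was not tested. The members, the 13 gene lists and the tests were chosen with earlier results of these data known. Genes named are the first 10 flanks by number of peaks, with ties settled by the smallest distance (6 of 30 pairs enter this way), the 6 peaks nearest to a start and to an end, every list gene with a peak (2 are not reported here), peaks within 100 nt of another of their flank and sign, and those at the window's limits. Some named genes fall outside this rule and were chosen after their values were seen. These are pairs of both signs (Ppp2r5a, Maged1, Hsdl2), the gene models on chromosome 4, and genes named for a nearby small RNA gene or a wider peak. The geometry was tested on simulated positions. Histone genes were matched through synonyms. No score, exon or genome sequence was used.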

Additional observations from a re-analysis of the deposited data

Results flagged for a closer look

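Wider peaks in the same stretch were left out by the width rule and drew notice as a signal outside the main measurement. There were 30 peaks of 40 to 100 nt outside gene bodies within 3000 nt of a protein-coding gene, 15 upstream, 9 downstream and 6 beside genes of unknown strand. Their median distance was 1160 nt, 13 lay within 1000 nt, and 11 carried the minus sign; the difference from the narrow peaks was not tested. The widest, 100 nt, lay 1596 nt past the end of Rab7, a GTPase of late endosomes. A peak of 60 nt stood 579 nt past Aamdc, between its narrow peaks and of the same sign. Upstream of Zfp143, peaks of 60 and 40 nt at 1919 and 1849 nt continued the narrow pair on the plus sign. Hrh2, a histamine receptor gene, had 3 plus peaks of 40 nt between 1810 and 1950 nt upstream.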

How the results depend on the processing

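The number of peaks was 833 with any width, 773 with the whole peak outside genes and 793 with nearby peaks of 1 sign merged. The share within 1000 nt stayed between 63.9% and 64.7% in its 5 alternatives, and the share upstream between 69.8% and 88.5% in all alternatives but 1. That exception was the window beyond 1000 nt, where the share upstream was 52.0% (exact binomial p = 0.60). Both it and the window of 1 to 250 nt, which gave the 88.5%, were added after seeing the data. The difference in sign between sides passed the unadjusted threshold in 1 alternative, the window of 1 to 1000 nt. There it was 14.2 percentage points (Fisher's exact test, p = 0.028), with gene strands not weighted equally. The smallest Fisher's exact p otherwise was 0.084, with nearby peaks merged, and the cause was not tested. With genes of both strands weighted equally over the whole window, the difference was 2.50 points. The excess within 1000 nt upstream over downstream held in its 4 alternatives, and the body peak comparison passed in none of its 4. No paired analysis was possible because the 3 samples form 1 group and 1 list, and no replicate could be left out for the same reason. Depth is unknown, so a gene without a flanking peak is not shown to lack contact.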
